A study of Mus musculus with 42 samples.

Results

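The 9 genes described here, Igfbp4, Dapl1, Pde3b, Vipr1, Sema4a, Pdlim4, Actn1, Adh1 and Amigo2, were expressed more highly by resting conventional CD4+ T cells (Tconv) than by resting regulatory T cells (Treg) of the mouse spleen. They were selected on their values on the arrays of untreated cells (0 h), as genes lower in Treg than in Tconv, from 19752 genes with a symbol of their own on the array, of which 12425 were bright enough to be tested. All 9 were among those tested. Because the 0 h arrays chose the genes, differences that involve them are described without a test, and tests were made on the arrays taken at later times.

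Igfbp4 encodes a secreted protein that binds insulin-like growth factors, and Vipr1 encodes a receptor for vasoactive intestinal peptide that raises cyclic AMP (cAMP), the messenger that the phosphodiesterase Pde3b breaks down. Sema4a encodes a membrane-bound semaphorin, Amigo2 a leucine-rich repeat adhesion protein of the cell surface, Actn1 the actin cross-linker alpha-actinin, and Pdlim4 a PDZ and LIM domain protein of the actin cytoskeleton. Adh1 encodes an alcohol dehydrogenase whose substrates include retinol, and Dapl1 a small protein related to death-associated protein. Resting T cells hold a set of transcripts that are shut down when the T cell receptor is triggered, and Foxp3, the transcription factor that defines Treg, changes part of the resting programme.

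All mice were of the NOD strain, which develops autoimmune diabetes, and carried a green fluorescent protein (GFP) reporter in the Foxp3 gene. RNA of sorted splenic CD4+ cells was measured on Affymetrix ST1.0 gene arrays before and 2, 8, 24 and 72 h after KT3, an antibody against the CD3 part of the T cell receptor complex. KT3 was injected intravenously into females of 8 weeks (in vivo), or splenocytes were cultured with 1.25 µg/ml of it (in vitro), with 2 arrays for each of Tconv and Treg at each time, and 1 array of each cell type came from mice 24 h after rat IgG. In culture, the arrays numbered 1 came from a female of 9 weeks and those numbered 2 from a male of 14 weeks, so that sex, age and array number go together there. The in vivo sort took GFP-negative cells as Tconv and GFP-positive cells as Treg, after exclusion of B220, CD8a, CD11b and CD11c, and cells were sorted once or a second time, as the labels record for each in vivo array. For the cultured Treg the labels give the gate as GFP negative, although these arrays carried Treg transcripts as described below. The sources used here do not say whether the arrays of an in vivo group came from separate mice, so that p-values measure only how far these samples vary, which may be technical.

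The promoters of 8 of the 9 genes (all but Pde3b) were found in a RefSeq table for GRCm38.p6 that holds 32851 windows from 250 bases before to 50 bases after a start. Since the genes were low in the same cells and most changed over the same steps, their windows were searched on both strands for 7 short motifs of factors known in T cells; overlapping matches were allowed. The forkhead motif GTAAACA, held by 3.65% of all windows, occurred in 1 of the 8, that of Dapl1, starting 164 bases before the start. The KLF motif CCACACCC, held by 3.56% of all windows, occurred in that of Igfbp4, on the opposite strand as GGGTGTGG, 48 bases before the start; the start used in the table lies inside the annotated span of Igfbp4. The TCF/LEF motif CTTTGA (16.0% of windows), the ETS motif ACAGGAA (8.67%), the NFAT motif GGAAAA (23.4%), the AP-1 motif TGACTCA (5.20%) and the CRE motif TGACGTCA (1.79%) had no match in the 8 windows. The 250 bases before the start of these 2 genes are shown because they hold the matches, which are in capitals, on the plus strand at chr2:59484403-59484652 for Dapl1 and at chr11:99040994-99041243 for Igfbp4.
Dapl1: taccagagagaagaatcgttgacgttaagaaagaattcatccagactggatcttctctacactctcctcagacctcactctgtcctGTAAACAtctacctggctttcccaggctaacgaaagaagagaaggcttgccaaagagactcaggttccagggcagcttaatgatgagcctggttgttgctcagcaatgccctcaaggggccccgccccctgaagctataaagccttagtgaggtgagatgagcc
Igfbp4: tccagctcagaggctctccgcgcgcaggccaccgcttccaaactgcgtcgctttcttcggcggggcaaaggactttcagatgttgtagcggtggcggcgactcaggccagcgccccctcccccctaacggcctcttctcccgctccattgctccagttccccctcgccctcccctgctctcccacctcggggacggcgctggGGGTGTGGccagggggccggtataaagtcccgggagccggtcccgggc
A match describes these letters and does not show that a factor binds there.

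The deposited values were intensities, with array medians between 87.6 and 116, and are given here as log2. The mean of 5 Treg markers (Foxp3, Il2ra, Ctla4, Ikzf2 and Tnfrsf18) lay between 10.53 and 11.97 on all Treg arrays and between 7.09 and 8.52 on all Tconv arrays, in both settings, and the mean of 5 CD4 T cell markers lay between 9.73 and 11.53 throughout. In vivo, the mean of 24 markers of 7 other cell types was higher on array number 1 than on number 2 in all 10 groups of 2 arrays, at 6.45 to 7.52 against 5.70 to 5.92. Adh1 was higher on number 1 in 10 of these 10 groups, Sema4a in 9, Igfbp4 in 8, Amigo2 and Pdlim4 in 7, Pde3b and Actn1 in 5, Vipr1 in 4 and Dapl1 in 3. In culture Adh1 was higher on number 1 in 9 of 10 groups and the marker mean in 5 of 10. With that marker mean as a covariate, all 74 calls made for the 9 genes in the contrasts below were kept. The in vitro Tconv array at 0 h numbered 1 stood apart, with an interquartile range of 1.64 log2 units against up to 3.21 on the others, and the 9 genes differed there from number 2 by -2.89 to -0.33. In sorted bulk samples, fewer cells of a type that holds a transcript and less transcript per cell cannot be told apart.

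At 0 h in vivo, Igfbp4 gave log2 intensities of 11.83 and 11.73 on the Tconv arrays and 8.59 and 7.76 on the Treg arrays. Dapl1 gave 9.18 and 9.35 against 6.0 and 6.03, and Pde3b 8.62 and 9.08 against 5.93 and 5.48. Both Treg arrays were below both Tconv arrays for all 9 genes, as the choice of the genes fixed. The differences, as log2 of Treg minus Tconv, were -3.61 for Igfbp4, -3.25 for Dapl1, -3.15 for Pde3b and -2.69 for Vipr1, which were ranks 1, 2, 3 and 4 from the lowest of the 12425 genes. Sema4a (-2.37, rank 6), Adh1 (-2.08, rank 14) and Pdlim4 (-1.90, rank 16) followed, and Actn1 (-1.37, rank 32) and Amigo2 (-1.20, rank 42) were the smallest. In vitro at 0 h the differences ran from -3.12 for Igfbp4 to -0.44 for Actn1 and -0.46 for Amigo2, which ranked 2126 and 1935. These last 2 values rest on the Tconv array that stood apart, on which Actn1 was 7.98 against 9.69 on number 2 and Amigo2 7.84 against 9.59.

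**Figure D1:**
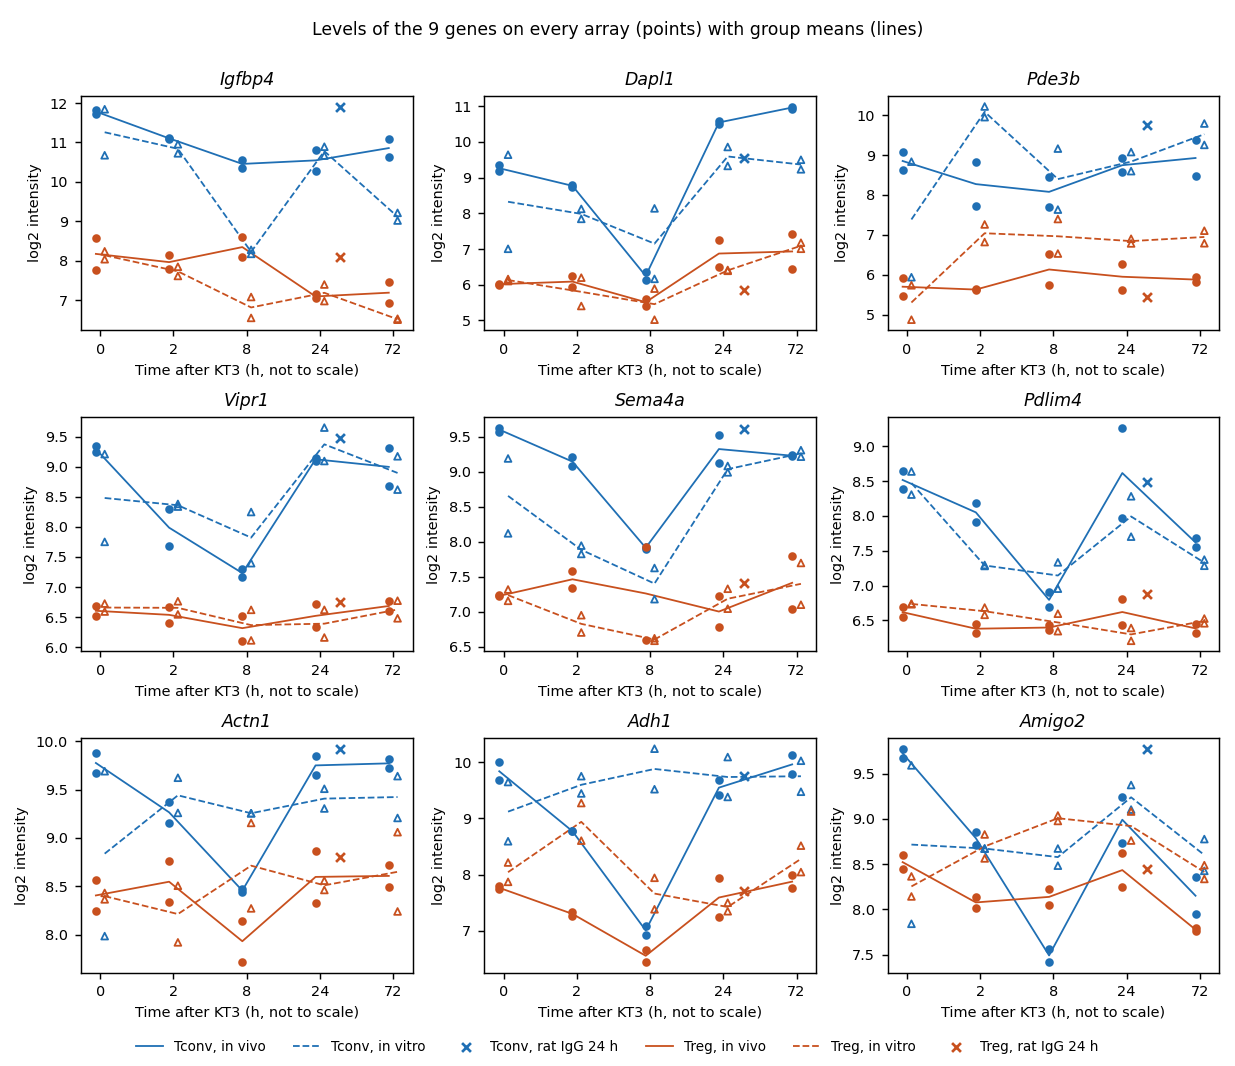
Log2 intensity of each gene on every array (points) against time after KT3, with group means joined by lines, for Tconv (blue) and Treg (orange), in vivo (filled circles, solid) and in vitro (open triangles, dashed); crosses are the rat IgG arrays at 24 h. All 9 genes had their lowest in vivo Tconv mean at 8 h, a count not made for all genes. The in vivo Treg means of Igfbp4, such as 7.09 at 24 h, lie below those of Tconv at the same times.

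The genes were selected on the 0 h arrays and not on those of the mice given rat IgG. The members were, however, chosen with earlier results of these data known, so the IgG arrays are not an independent check. On them, 7 of the 9 were called lower in Treg than in Tconv by limma with Benjamini-Hochberg adjustment (adjusted p under 0.05), against 0.225% of all genes tested. Igfbp4 was at 11.91 on the Tconv array and 8.09 on the Treg array, a difference of -3.82 ± 0.43 (SE, 14.1-fold, adjusted p = 6.16e-06). Pde3b was at 9.76 and 5.45 (-4.32 ± 0.84, adjusted p = 0.0079), and Dapl1 at 9.55 and 5.86 (-3.69 ± 0.77, adjusted p = 0.0148). Vipr1 (-2.72 ± 0.49), Sema4a (-2.20 ± 0.46), Adh1 (-2.05 ± 0.45) and Pdlim4 (-1.60 ± 0.37) were also called, with adjusted p of 0.00279 to 0.0297. Actn1 (-1.12 ± 0.52, adjusted p = 0.959) and Amigo2 (-1.33 ± 0.44, adjusted p = 0.314) had values of the same sign and were not called. The median over the 9 genes was -2.20, against -0.04 over all genes. With 1 array a group the spread was taken from the other groups; Pdlim4 lost its call when the in vivo arrays were fitted alone (adjusted p = 0.107), and 3 of the 9 genes were called when the in vivo arrays numbered 1 were left out.

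After injection of KT3, the same 7 genes were called lower in Treg at 2, 24 and 72 h (background 0.515%, 0.684% and 0.588% of all genes), and Igfbp4 alone was called at 8 h (background 1.07%). At 2, 8, 24 and 72 h these backgrounds were 0.813%, 0.813%, 1.01% and 0.95% with quantile normalization and 0.37%, 0.837%, 0.491% and 0.346% with median centring. Quantile normalization also moved the share of all called genes that were higher in Treg from 78.6% to 66.6% at 24 h and from 83.7% to 73.3% at 72 h. The median over the 9 genes went from -1.67 at 2 h to -0.65 at 8 h, -2.32 at 24 h and -2.09 at 72 h, while the median over all genes stayed between -0.02 and 0.04. Both Treg arrays were below both Tconv arrays for 9, 7, 9 and 9 of the 9 genes at these times, against 21.2%, 24.8%, 21.3% and 29.8% of all genes.

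Igfbp4 kept the difference at every time. Its Tconv arrays read 11.12 and 11.09 at 2 h, 10.34 and 10.57 at 8 h, 10.81 and 10.28 at 24 h, and 11.09 and 10.62 at 72 h. Its Treg arrays read 8.13 and 7.79, 8.10 and 8.59, 7.14 and 7.04, and 7.46 and 6.91 at the same times. Both Treg arrays were below both Tconv arrays at each time, and the differences were -3.14, -2.11, -3.45 and -3.67 (each ± 0.30), with adjusted p of 4.98e-05 at 8 h and 1.05e-07 or less at the other times.

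Dapl1 was called at 2, 24 and 72 h and not at 8 h. Its Tconv arrays read 8.74 and 8.80 at 2 h, 6.14 and 6.36 at 8 h, 10.51 and 10.58 at 24 h, and 10.93 and 10.99 at 72 h. Its Treg arrays read 6.24 and 5.93, 5.41 and 5.61, 7.24 and 6.51, and 7.43 and 6.44. At 24 and 72 h the Tconv arrays were above every Tconv array of 0 h, by 1.28 and 1.70 in the mean. The difference between the cell types was -2.68 at 2 h, -0.74 at 8 h (each ± 0.55, adjusted p = 0.00316 and 0.629), -3.67 at 24 h and -4.03 at 72 h (adjusted p = 8.11e-05 and 2.25e-05).

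Of the 2 genes of cAMP signalling, Pde3b had a difference of -1.94 ± 0.60 at 8 h that was not called (adjusted p = 0.0651), with Tconv arrays at 7.70 and 8.46 and Treg arrays at 6.52 and 5.75. Its values at 2, 24 and 72 h were -2.64, -2.79 and -3.04 (adjusted p = 0.00854, 0.00515 and 0.00209). The receptor Vipr1 was at 7.30 and 7.16 in Tconv at 8 h, against 6.11 and 6.53 in Treg, a difference of -0.92 ± 0.34 (adjusted p = 0.162), and was at -1.45, -2.60 and -2.31 at the other times. A second cluster of probes named Vipr1, not used in the tests, had its lowest in vivo Tconv mean at 8 h too, at 6.95 against 8.02 at 0 h.

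The retinol-metabolising Adh1 stood at 7.09 and 6.92 in Tconv at 8 h and at 6.66 and 6.44 in Treg, and the difference of -0.45 ± 0.32 was not called (adjusted p = 0.602). At 2, 24 and 72 h it was -1.47, -1.96 and -2.09 (adjusted p = 0.00619, 0.00029 and 0.000116). The semaphorin Sema4a overlapped at 8 h, with Tconv at 7.93 and 7.90 and Treg at 7.92 and 6.60; its Treg array numbered 1, the higher one, also had the higher mean of other-cell markers (7.22 against 5.88), and their part in it was not tested. Its differences were -1.68 at 2 h, -0.65 at 8 h (adjusted p = 0.346), -2.32 at 24 h and -1.81 at 72 h. For Pdlim4 they were -1.67, -0.40, -1.99 and -1.23, the 8 h value again not called (adjusted p = 0.55).

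Actn1 and Amigo2 were not called at any of the 4 times. Actn1 ran from -0.52 ± 0.36 at 8 h (adjusted p = 0.588) to -1.16 ± 0.36 at 72 h (adjusted p = 0.0823), with both Treg arrays below both Tconv arrays at each time. Amigo2 was the 1 gene higher in Treg at 8 h, by 0.65 ± 0.31 (adjusted p = 0.322), with Treg at 8.22 and 8.05 and Tconv at 7.56 and 7.42. At 72 h its Tconv arrays read 7.95 and 8.35 and its Treg arrays 7.80 and 7.76, a difference of -0.37 ± 0.31 (adjusted p = 0.534).

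Some in vivo calls were lost when 1 array was left out, which leaves 1 array in a group and raised the SE of these values. Pde3b at 2 h was then -2.66 or -2.62 without a Treg array and -2.09 without Tconv number 2, against -2.64. At 2 h the calls of Adh1, Pde3b and Vipr1 were lost without either Treg array and without 1 Tconv array (number 1 for Adh1 and number 2 for Pde3b and Vipr1), and that of Dapl1 without Treg number 2; their values then lay between -2.66 and -1.14, with adjusted p of 0.051 to 0.153. Pde3b was lost at 24 h without Tconv number 2 (-2.62) or Treg number 2 (-2.47), and at 72 h without Tconv number 2 (-2.59). Pdlim4 was lost at 72 h without Tconv number 1 or Treg number 2 (-1.17 in both). The calls of Igfbp4 and Sema4a were kept without any 1 of these arrays.

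**Figure D2:**
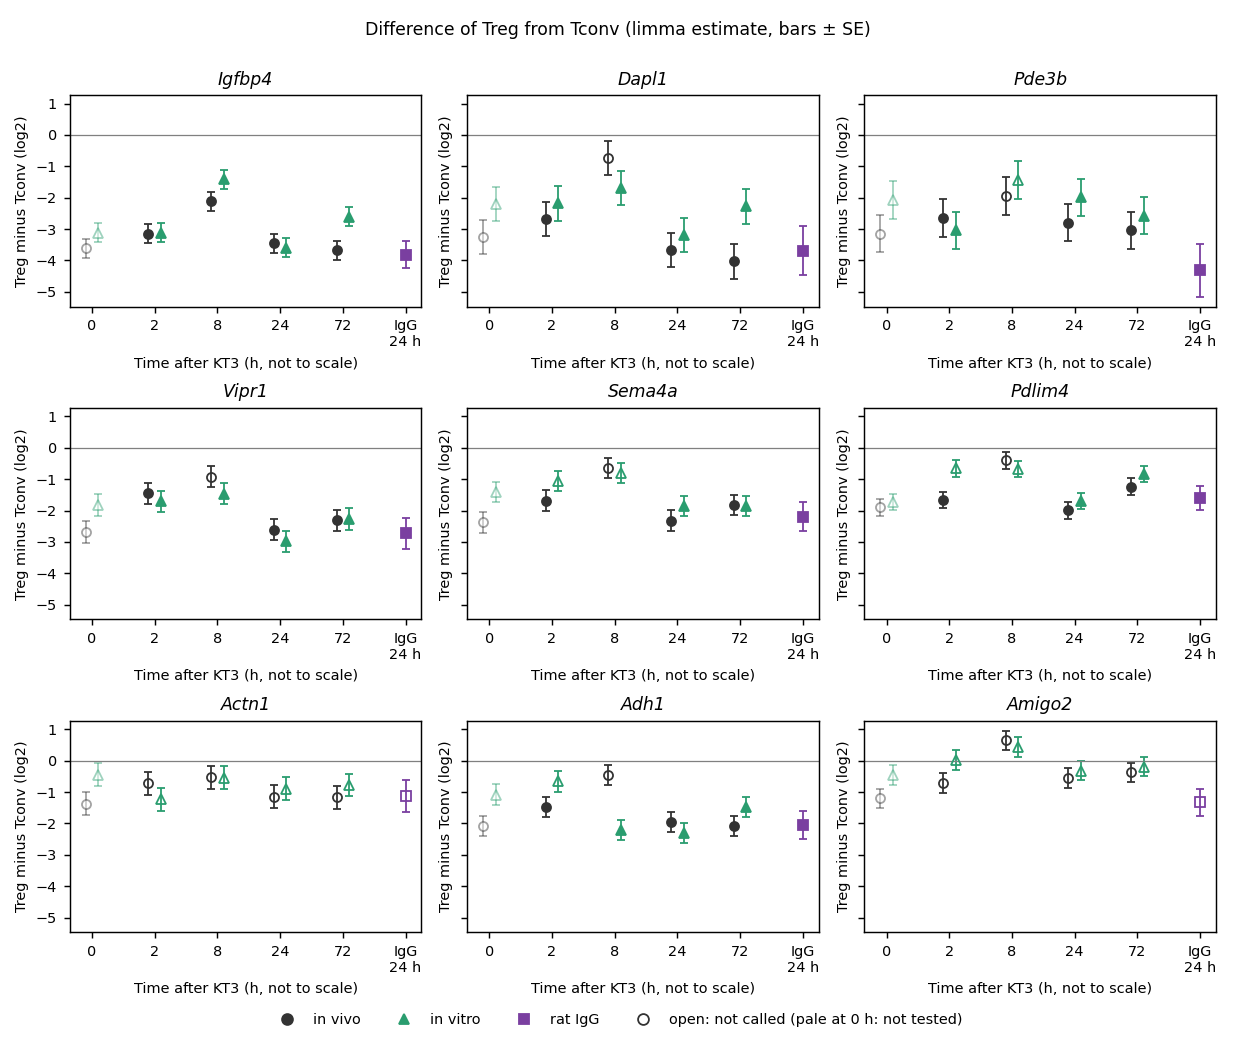
Treg minus Tconv on the log2 scale (limma estimate ± SE) for each gene at each time in vivo (circles), in vitro (triangles) and after rat IgG (squares); filled symbols are called, open ones are not, and pale symbols at 0 h were not tested because those arrays chose the genes. The in vivo values come nearest to 0, or above it for Amigo2, at 8 h, and 7 genes are called again at 24 and 72 h.

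With KT3 added to culture, the genes called lower in Treg numbered 4 at 2 h (background 0.531%), 4 at 8 h (6.61%), 7 at 24 h (7.05%) and 7 at 72 h (1.71%). Quantile normalization gave backgrounds of 0.926%, 9.58%, 11.4% and 4.69%, and median centring 0.306%, 3.34%, 4.1% and 0.966%. The share of all called genes that were higher in Treg was 83.7%, 72.3%, 66.9% and 83.4% as deposited and 73.5%, 58.1%, 42.5% and 57.7% with quantile normalization, and it was 84.6% at 8 h with median centring. Igfbp4, Dapl1 and Vipr1 were called at all 4 times, Pde3b at 2, 24 and 72 h, Adh1 at 8, 24 and 72 h, and Sema4a and Pdlim4 at 24 and 72 h. The median over the 9 genes was -1.23, -1.41, -1.99 and -1.86. Both Treg arrays were below both Tconv arrays for 8, 8, 9 and 8 genes, against 23.4%, 33.8%, 36.9% and 31.5% of all genes. The in vitro background at 8 and 24 h was thus several times that in vivo.

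Igfbp4 read 10.95 and 10.72 in Tconv at 2 h, 8.27 and 8.17 at 8 h, 10.67 and 10.89 at 24 h, and 9.21 and 9.02 at 72 h. In Treg it read 7.84 and 7.61, 6.55 and 7.08, 6.97 and 7.39, and 6.50 and 6.52. The Treg arrays were below the Tconv arrays throughout, and the differences were -3.11, -1.41, -3.60 and -2.60 (each ± 0.30, adjusted p = 1.45e-07, 0.00187, 7.06e-09 and 1.62e-06). Adh1 differed by -0.66 ± 0.32 at 2 h (adjusted p = 0.408) and by -2.22 ± 0.32 at 8 h (adjusted p = 2.34e-05), where Tconv read 10.24 and 9.52 and Treg 7.94 and 7.38. Pde3b was at 10.21 and 9.95 in Tconv at 2 h, its highest values in the series, and at 7.26 and 6.82 in Treg, a difference of -3.04 ± 0.60 (adjusted p = 0.00229). Amigo2 was between -0.32 and 0.43 and Actn1 between -1.23 and -0.54, and neither was called.

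In culture too, calls were lost when 1 array was left out, some of them whichever array of the comparison it was. Dapl1 at 2 h was lost without either Tconv array or Treg number 2 (-2.32 to -1.79), and Vipr1 without Treg number 1 (-1.60). Dapl1 at 8 h was -0.71 without Tconv number 2 and -1.26 without Treg number 2, and -2.68, still called, without Tconv number 1; quantile normalization (-1.5), median centring (-1.57) and an offset of 32 before log2 (-1.23) also ended that call. Vipr1 at 8 h was lost without Treg number 1 (-1.20) or Tconv number 2 (-1.03), and Pde3b at 24 h without any 1 of the 4 arrays (-2.23 to -1.75). At 72 h Pdlim4 was lost without any 1 of the 4 (-0.88 to -0.79) and under median centring, without the filter on dim genes or with the offset, Adh1 without Tconv number 1 (-1.20) or Treg number 2 (-1.24), and Dapl1 and Pde3b without Treg number 1 or Tconv number 2 (-2.42 to -2.14). Dapl1 at 2, 8 and 72 h and Pde3b at 24 h were not called either when each setting was fitted alone.

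Time after KT3 was then compared within each cell type from 2 h on. In Tconv in vivo, all 9 genes had their lowest mean at 8 h. The share of all tested genes with their lowest mean at 8 h was not counted. Of the 9, 5 were called lower at 8 than at 2 h (background 2.15%), and 7 were called higher at 24 than at 8 h (background 8.46%). The first background was 3.33% with quantile normalization and 1.1% with median centring, and the share of all called genes that were higher at 8 h was 74.6%, against 49% and 87.3%. These 2 steps share the 8 h arrays, so that a low value there enters both. From 24 to 72 h none of the 9 was called by limma (0 at an adjusted p under 0.05, and background 0.861%), and the differences ran from -1.0 ± 0.26 for Pdlim4 (adjusted p = 0.0767) to 0.42 ± 0.55 for Dapl1. Over the 3 steps, 12 of 27 tests were called, to be read against the backgrounds given above for each step. An unadjusted limma p under 0.05 was found in 17, against 19.3% of such tests over all genes.

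Dapl1 fell by 2.52 from 2 to 8 h (SE 0.55, adjusted p = 0.0057) and rose by 4.30 ± 0.55 from 8 to 24 h (adjusted p = 3.16e-06). Adh1 read 8.77 on both arrays at 2 h, 7.09 and 6.92 at 8 h, and 9.68 and 9.42 at 24 h, a fall of -1.77 ± 0.32 (adjusted p = 0.00133) and a rise of 2.54 ± 0.32 (adjusted p = 2.87e-06). Amigo2 read 8.72 and 8.86, then 7.56 and 7.42, then 9.24 and 8.74, with -1.30 ± 0.31 (adjusted p = 0.0107) and 1.5 ± 0.31 (adjusted p = 0.000906). The 8 h arrays lay below the arrays of both neighbouring times for these 3 genes, and also for Sema4a, Pdlim4, Vipr1 and Actn1. They did not for Igfbp4 and Pde3b, and the share over all genes was not counted. At 72 h Amigo2 was at 7.95 and 8.35, below both 0 h arrays (9.78 and 9.68), a difference of means of -1.57, while Adh1 at 10.14 and 9.79 overlapped its 0 h arrays.

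Pdlim4 fell by 1.26 (SE 0.26, adjusted p = 0.0041) and rose by 1.82 ± 0.26 (adjusted p = 1.32e-05), the 24 h arrays lying apart at 9.27 and 7.96. Sema4a fell by 1.23 (SE 0.32, adjusted p = 0.0191) and rose by 1.41 ± 0.32 (adjusted p = 0.00237). Vipr1 went from 7.68 and 8.29 at 2 h to 7.30 and 7.16 at 8 h, which was not called (adjusted p = 0.187), and rose by 1.89 ± 0.34 to 24 h (adjusted p = 0.000237). Actn1 rose by 1.30 ± 0.36 (adjusted p = 0.0118). Igfbp4 and Pde3b were the 2 genes with no called step in Tconv in vivo: Igfbp4 changed by -0.65 ± 0.30 and 0.09 ± 0.30, and Pde3b by -0.19 ± 0.60 and 0.67 ± 0.60.

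Without 1 array, Sema4a from 2 to 8 h lost its call whichever of the 4 was left out (-1.30 to -1.16), and under median centring (-1.11, adjusted p = 0.0519). Amigo2 lost that step without either 8 h array or 2 h number 2 (-1.37 to -1.22), Dapl1 without 8 h number 1 or 2 h number 2 (-2.41 and -2.49), and Pdlim4 without 8 h number 2 (-1.15). Of the rises to 24 h, that of Actn1 was lost without either 8 h array or 24 h number 2 (1.20 to 1.31), and that of Pdlim4 was 1.17 without 24 h number 1 and still called. Of the 27 tests, 3 were called with the in vivo arrays numbered 1 left out and 4 with those numbered 2 left out, alternatives chosen after seeing the data.

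**Figure D3:**
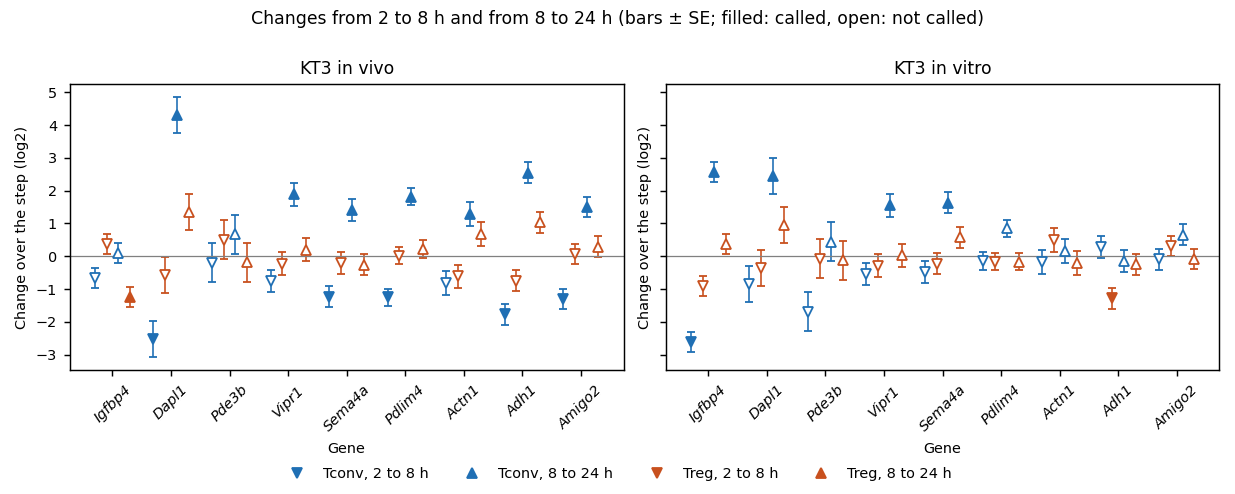
Change on the log2 scale (limma estimate ± SE) from 2 to 8 h (downward triangles) and from 8 to 24 h (upward triangles) for each gene in Tconv (blue) and Treg (orange), in vivo (left) and in vitro (right); filled symbols are called. In vivo the Tconv values are negative and then positive for all 9 genes, from -2.52 to 4.30 for Dapl1, while 1 Treg value, the fall of Igfbp4 from 8 to 24 h, is called.

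In Treg the largest minus the smallest of the time means from 2 to 72 h had a median over the 9 genes of 0.66 in vivo and 0.60 in vitro, against 1.5 and 1.55 in Tconv. This is a description without a test, and 0 h is left out because it chose the genes. The spans were not computed over all genes, so smaller spans in Treg are not shown to be particular to the 9. Several Treg means lay near or below the log2 array medians of 6.45 to 6.86, such as Dapl1 at 5.51 and Pde3b at 6.13 at 8 h in vivo, where RMA compresses changes, and its part in the Treg spans was not tested. One of 27 Treg steps was called in vivo (background over these contrasts 1.81%), a fall of Igfbp4 from 8.10 and 8.59 at 8 h to 7.14 and 7.04 at 24 h (-1.25 ± 0.30, adjusted p = 0.0129, background of lower calls 2.21%). It was lost without 8 h number 2, 24 h number 1 or 24 h number 2 (-1.30 to -1.01). Adh1 followed the Tconv shape in Treg without a called step, at 7.33 and 7.26 at 2 h, 6.66 and 6.44 at 8 h, and 7.93 and 7.25 at 24 h (1.04 ± 0.32 for the second step, adjusted p = 0.0621). Dapl1 read 5.41 and 5.61 at 8 h and 7.24 and 6.51 at 24 h (1.36 ± 0.55, adjusted p = 0.184). For no single gene was the change called different from that in Tconv. Of 27 tests of a change in the Treg minus Tconv difference after 2 h in vivo, limma called 0 (background 0.0456%). An unadjusted p under 0.05 was found in 7, against 2.96% over all genes. The nearest, Pdlim4 from 2 to 8 h, was 1.27 ± 0.37 (adjusted p = 0.683). All 9 of these values from 2 to 8 h were above 0, with a median of 1.03 against -0.04 over all genes. They come from the same arrays, so the 9 genes are not replicates and their shared sign is not a test. The share of all genes above 0 was not counted.

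In Tconv in vitro the lowest mean from 2 h on was at 8 h for 8 of the 9 genes, and at 2 h for Adh1. The share of all tested genes was not counted here either. Pde3b, Actn1 and Adh1 had a still lower mean at 0 h, where the array that stood apart read 7.98 for Actn1 and 8.59 for Adh1 and the other array 9.69 and 9.65. Igfbp4 alone was called lower from 2 to 8 h (-2.62 ± 0.30, adjusted p = 1.99e-06, background 5.13%). It returned by 24 h (2.56 ± 0.30, adjusted p = 4.36e-05) and was lower again at 72 h (-1.66 ± 0.30, adjusted p = 0.0198, background 0.0402%). Dapl1 (2.44 ± 0.55), Sema4a (1.63 ± 0.32) and Vipr1 (1.55 ± 0.34) rose with it from 8 to 24 h, 4 genes in all (background 3.63%), with adjusted p of 0.00385 to 0.0097. These 3 rises were lost without 8 h number 1 (Dapl1 1.45, Sema4a 1.41, Vipr1 1.13) or 24 h number 1 (2.71, 1.59 and 1.27), and that of Dapl1 also without 24 h number 2 (2.17). Dapl1 at 8 h was at 6.16 and 8.14 on the 2 arrays. The step of Igfbp4 to 72 h was lost without any 1 of its 4 arrays (-1.78 to -1.55) and under median centring, and it, Dapl1 and Vipr1 were not called when the in vitro arrays were fitted alone. Of the 27 steps 6 were called, 3 without 8 h number 1 and 2 without 24 h number 1.

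In Treg in vitro, 1 of 27 steps was called (background 2.81%), a fall of Adh1 from 9.27 and 8.60 at 2 h to 7.94 and 7.38 at 8 h (-1.28 ± 0.32, adjusted p = 0.0185, background of lower calls 1.35%, and 2.01% with quantile normalization). It was lost without 2 h number 1 (-0.94) or 8 h number 2 (-1.0), and when the in vitro arrays were fitted alone (adjusted p = 0.133). Pde3b was at 4.88 and 5.74 in Treg at 0 h in vitro and between 6.53 and 7.40 on all later arrays, 1.54 to 1.73 above 0 h in the mean, a described value. Of 27 tests of a change in the Treg minus Tconv difference after 2 h in vitro, limma called 0 (background 0.735%). An unadjusted p under 0.05 was found in 5, against 8.31% over all genes. Igfbp4 from 2 to 8 h came nearest (1.70 ± 0.43, adjusted p = 0.0723).

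KT3 and rat IgG were compared at 24 h, when most of the genes had returned. None of 18 tests was called by limma (background 0.873%), and 3 had an unadjusted p under 0.05, against 10.3% over all genes. Igfbp4 in Tconv was at 10.81 and 10.28 after KT3 and 11.91 after IgG, the lowest adjusted p of the family (-1.37 ± 0.37, adjusted p = 0.0679), and in Treg at 7.14 and 7.04 against 8.09 (-1.0 ± 0.37, adjusted p = 0.283). Both KT3 arrays were below the IgG array in each cell type. Amigo2 in Tconv was at 9.24 and 8.74 against 9.78 (-0.79 ± 0.38, adjusted p = 0.725), and for Dapl1 KT3 minus IgG was 0.99 ± 0.67 in Tconv and 1.01 ± 0.67 in Treg (adjusted p = 0.952 and 0.477). The comparison uses 1 IgG array a cell type, numbered 2 and double sorted in both. The KT3 arrays at 24 h were numbered 1 and 2. In Tconv number 1 was single sorted and number 2 double sorted, and in Treg both were single sorted. Treatment thus goes in part with array number and sort. Under each of 6 other settings 1 of the 18 tests was called, among them the fits with a term for array number or for sort.

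The 2 routes of KT3 were compared through the change from 2 h, which does not use the 0 h arrays. Of 54 tests 3 were called, a share close to the background of 4.87%. An unadjusted p under 0.05 was found in 13, against 14.8% over all genes. From 2 to 8 h in Tconv, Igfbp4 changed by -0.65 in vivo and by -2.62 in vitro (a difference of 1.97 ± 0.43, adjusted p = 0.0168, background of higher calls 1.02%). Over the same step Adh1 fell in vivo (-1.77) and was at 0.28 in vitro, where it read 9.75 and 9.45 at 2 h and 10.24 and 9.52 at 8 h; the difference was -2.05 ± 0.45 (adjusted p = 0.0194, background of lower calls 0.37%, 1.02% with quantile normalization and 0.137% with median centring). From 2 to 24 h in Treg, Adh1 went from 7.33 and 7.26 to 7.93 and 7.25 in vivo and from 9.27 and 8.60 to 7.5 and 7.35 in vitro, a difference of 1.81 ± 0.45 (adjusted p = 0.0118, background of higher calls 2.78%). Igfbp4 was lost without in vivo 2 h number 1, 2 h number 2 or 8 h number 2, or in vitro 2 h number 1 or 8 h number 1 (1.85 to 2.02). Adh1 in Tconv was lost without in vivo 2 h number 1, 2 h number 2 or 8 h number 2, or in vitro 2 h number 2 or 8 h number 1 (-2.05 to -1.69), and under median centring (-1.86, adjusted p = 0.0705). Adh1 in Treg was lost without in vivo 24 h number 1, in vitro 2 h number 1 or in vitro 24 h number 2 (1.47 to 1.73). The route goes with the age of the mice and, for the arrays numbered 2, with sex, and these cannot be told apart from it. The Treg minus Tconv difference itself was not called different between the routes in any of 36 tests by limma (background 0.127%). An unadjusted p under 0.05 was found in 4, against 4.56% over all genes. The nearest to a call was Adh1 at 8 h (1.77 ± 0.45, adjusted p = 0.234).

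Relatives of the 9 genes were examined at 24 h in vivo, where 0.684% of all genes were called lower and 2.51% higher in Treg than in Tconv. Of 18 tested genes of cAMP signalling, 2 were higher, the prostaglandin E2 receptor Ptger2 (1.71 ± 0.20) and the phosphodiesterase Pde8a (0.88 ± 0.22), opposite in sign to Pde3b and Vipr1. Of 14 semaphorins, plexins and neuropilins, 3 were higher, Nrp1 (3.19 ± 0.29), Plxnc1 (1.63 ± 0.33) and Plxnd1 (1.01 ± 0.19), and Sema4f was lower (-0.80 ± 0.22). Of 7 genes of the IGF system, the receptor Igf1r was higher (1.22 ± 0.21). Of 12 actinins, PDZ-LIM proteins and actin linkers, Pdlim1 (-1.09 ± 0.27) and Pdlim7 (-0.62 ± 0.15) were lower. Of 12 genes of alcohol and retinoid metabolism and retinoic acid receptors, Rarg was higher (0.78 ± 0.22). Of 4 relatives of Amigo2 and Dapl1, 0 were called by limma and 1 had an unadjusted p under 0.05. The lists were chosen with earlier results known and are described by these counts alone.

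A list of naive and quiescence genes, 18 of them tested, was followed over the same steps in Tconv in vivo. From 2 to 8 h, 5 were lower (2.15% of all genes), led by the interleukin 7 receptor Il7r (-4.04 ± 0.52), S1pr1, the receptor for exit from lymphoid organs (-1.92 ± 0.41), and the kinase Txk (-1.44 ± 0.31). From 8 to 24 h, 11 were higher (8.46% of all genes), led by Il7r (2.78 ± 0.52), Nsg2 (2.58 ± 0.30) and S1pr1 (2.43 ± 0.41). The medians of the list were -0.69 and 0.85, against 0.03 and 0.02 over all genes; the 9 genes had -1.23 and 1.5. Between cell types at 24 h, Nsg2 was lower in Treg (-2.32 ± 0.30) and the chemokine receptor Ccr9 higher (1.61 ± 0.29), the other 16 not being called. Of 10 T cell receptor response genes, 4 were lower and 1 higher from 2 to 8 h (2.15% of all genes were lower and 6.33% higher). Among them Cd69 (-2.34 ± 0.55) and Egr1 (-2.19 ± 0.31) were lower and Tnfrsf9 (1.47 ± 0.27) was higher. From 8 to 24 h 7 were lower (10.9% of all genes), among them Il2ra (-3.05 ± 0.30) and Il2 (-2.76 ± 0.27), while 7 of the 9 genes rose.

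Over the 20 groups other than IgG, the 36 pairs among the 9 genes had Pearson correlations of group means from 0.303 to 0.923, with a median of 0.782. The groups share the contrast of cell types on which the genes were chosen; within the 10 Tconv groups the median was 0.553 (-0.261 to 0.857, highest for Dapl1 with Vipr1) and within the 10 Treg groups 0.037, with 18 of 36 pairs below 0. The genes with the course most like each were found over the same 20 groups among the tested genes other than the 9. Symbols that start with Gm and a digit, Mir or Snor, or end in Rik, were left out. For Dapl1 these were Nsg2 (r = 0.968), Jup (0.921) and Gprc5b (0.917), for Vipr1 Hid1 (0.943), B3galt4 (0.939) and Inafm2 (0.937), for Pdlim4 Hid1 (0.953), Acvrl1 (0.944) and Lypd6b (0.935), and for Sema4a Lypd6b (0.931), Cnga1 (0.92) and Hid1 (0.919). For Igfbp4 they were Il1rl2 (0.913), Arhgap29 (0.906) and Tgfbr3 (0.906), and for Adh1 Vax1 (0.922), Atoh7 (0.915) and Ttc9b (0.899). Actn1 was most like Nsg2 (0.893), Cnga1 (0.878) and Lef1 (0.877), Pde3b like the ribosomal protein genes Rps19 (0.88), Rps21 (0.869) and Rps28 (0.857), and Amigo2 like Man2c1 (0.807), Rgmb (0.719) and Gsc (0.706).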

How the data were processed

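The values are the intensities that the authors deposited, 1 for each of 24922 transcript clusters on each of 42 arrays, on a linear scale. Per the series design text they were preprocessed with RMA in GenePattern, and per the submitters' processing notes with Affymetrix Power Tools and RMA (versions: not given in the sources used here). Its background step compresses changes of dim genes. Groups and array numbers came from the labels.

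Intensities were put on the log2 scale with no offset added. For each symbol the cluster of highest mean was kept, and a gene was tested if it exceeded the median of 2 or more arrays (12425 genes). Limma 3.58.1 in R 4.3.3 fitted 22 group means over all arrays (20 residual degrees of freedom) and tested 39 contrasts, two-sided, with Benjamini-Hochberg adjustment over all tested genes in each; 20 contrasts that involve 0 h were described only. The script was tested on simulated data. Tables and plots used Python 3.11.15, pandas 2.3.3 and matplotlib 3.10.9. All 9 genes are named, with the 3 genes most like each and up to 4 called genes of a list with the largest change, fewer where space required. The members and lists were chosen with earlier results of these data known. Alternatives were another normalization, an offset, filter, covariates, a replicate block, separate models and leaving out each array. Having few arrays a group limits precision.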

Additional observations from a re-analysis of the deposited data

Results flagged for a closer look

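Differences between the in vivo and in vitro change from 2 h, each past the threshold of a test of the difference itself, were marked for 2 genes, in 3 of 54 tests. That share is close to the 4.87% of such tests called over all genes, so the count does not set the 9 genes apart. Each of the 3 calls was lost in several refits that leave out 1 array: 5 for Igfbp4, 5 for Adh1 in Tconv and 3 for Adh1 in Treg. Igfbp4 in Tconv changed from 2 to 8 h by -0.65 in vivo and -2.62 in vitro, a difference of 1.97 (SE 0.43, limma adjusted p = 0.0168). Adh1 in Tconv differed over the same step by -2.05 (SE 0.45, limma adjusted p = 0.0194), being -1.77 in vivo and 0.28 in vitro. Adh1 in Treg differed from 2 to 24 h by 1.81 (SE 0.45, limma adjusted p = 0.0118). The 2 h arrays of Igfbp4 in Tconv read 11.12 and 11.09 in vivo and 10.95 and 10.72 in vitro, and those of Adh1 in Treg read 7.33 and 7.26 in vivo against 9.27 and 8.60 in vitro.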

How the results depend on the processing

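Counts are of called tests of the 9 genes. Of 74 calls, 0 reversed under any alternative run. Leaving aside the fits on 1 in vivo array number, 37 of the 67 calls that could be refitted were kept under every alternative and without any 1 array, and 6 of the 7 IgG calls, which could not, under every alternative; 79 of 280 refits without 1 array lost a call. The array number goes with sex and age in culture and mostly with the sort in vivo (number 1 had 9 single and 1 double sort, number 2 had 2 and 10). Deviations of same-numbered arrays correlated at -0.171 to 0.775 in vivo (median 0.305, 32 of 45 pairs over 0.1) and -0.447 to 0.709 in vitro (median 0.222, 28 of 45). Most pairs but not all were over 0.1, and the main fit left the number out by a rule that every pair be over it. The fit with a replicate block takes the number into account. With a replicate block all 74 calls were kept, with 2 Treg steps in vivo, 1 test of KT3 against IgG, 2 changes of the cell type difference in vitro, 1 difference between routes and 5 changes between routes. Quantile normalization gave 2 Treg steps in vitro, 1 KT3 against IgG, 3 changes of the difference in vitro and 5 changes between routes; it moved the median of all genes by up to 0.15, and median centring by up to 0.18. An offset of 32 or the sort as a term gave 1 KT3 against IgG and 1 change of the difference in vitro. The marker covariate gave 2 Treg steps in vivo and 1 KT3 against IgG. Without the 3 in vitro arrays of narrowest range there were 3 Treg steps in vivo, 2 in vitro, 1 KT3 against IgG, 1 change of the difference in vivo, 1 in vitro and 10 changes between routes. Separate models per setting gave 3 Treg steps in vivo, 3 Tconv steps in vitro and 0 Treg steps in vitro. With only the in vivo arrays numbered 2, or only those numbered 1, 8 and 8 Treg against Tconv tests after KT3 in vivo, 3 and 4 Tconv steps, 0 and 0 Treg steps and 0 and 0 changes between routes were called, and 3 tests after IgG with number 2. Without 1 array the counts ran from 18 to 23 for Treg against Tconv in vivo, 19 to 22 in vitro, 8 to 12 for Tconv steps in vivo, 2 to 8 in vitro, 0 to 1 for Treg steps in each setting and 1 to 4 for changes between routes, and stayed at 0 in the other 4 families; the IgG difference between cell types has 1 array a group and could not be refitted. These alternatives change the genes, arrays or terms of the fit, and the cause of each change was not tested. Near the background, where RMA compresses changes, the size of a fall is limited.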
